A study of Homo sapiens with 18 samples.

Results

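The data described here are 6 of 18 RNA sequencing libraries, 3 from cells given M1 medium and 3 from cells given control medium. The cells are LNCaP, a line grown from human prostate carcinoma that has luminal features and responds to androgens. M1 medium came from macrophages derived from the THP-1 monocytic leukaemia line and polarised to the M1 (pro-inflammatory) state, and it was diluted 1:4 in RPMI with 10% heat-inactivated serum. Control cells received that RPMI with serum and no macrophage product, so the 2 groups differ in everything the macrophages and their culture added to the medium. Both groups were wild type, were pre-incubated in RPMI with less serum, and were collected after 48 h. The libraries were chosen by their labels, one row per gene was used (its RefSeq transcript with the highest total count), and all 17073 genes that passed the filter on low counts were compared. Replicates are numbered but are not said to be separate cultures, so p-values measure only the spread between these libraries, which may be technical.

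M1 macrophages release cytokines such as TNF and interleukins, and receptors for these act through NF-kB, AP-1 and STAT factors in the nucleus of the receiving cell. The best known outcomes in epithelial cells are inflammatory and interferon genes, and in LNCaP cells androgen-regulated genes and the cell cycle are other well-studied readouts. Those genes are summarised once here, and the remaining genes are then taken by their roles: stress and iron handling, the cell surface and its glycans, the secretory route, metabolism, signalling and transcription factors, and the machinery of gene expression.

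The libraries held 29585653 to 31898453 gene counts in M1 medium and 28216307.5 to 31356228 in control. Log2 levels correlated at 0.992 to 0.994 within groups, but each replicate pair differed by more than sampling noise, and not by the same amount. The chi-square per gene was 11.28 and 20.95 for control replicate 2 against replicates 1 and 3, and 6.248 between replicates 1 and 3. In M1 medium it ranged from 4.707 (replicates 1 and 2) to 12.03 (replicates 2 and 3). Levels are in CPM (counts scaled to a common library size with TMM factors), which is not divided by transcript length, so CPM values are compared between groups and not between genes. The label LNCaP was borne out by its luminal markers in control cells, which had 3519 to 3934 CPM of KLK3 and 258 to 273 of KRT18. Of 14 luminal markers, 3 were higher and 10 lower in M1 medium. Keratin 8 (KRT8) had 470 to 506 CPM in M1 medium and 341 to 357 in control. Of 20 macrophage markers, TYROBP, MPEG1, FCGR3A and CYBB had no count in any of the 6 libraries, PTPRC had none in M1 medium, and CD14 was near 0 in both groups. Of the 10 that could be tested, 7 were higher and 2 lower, among them CD68 (34.8 to 40.3 CPM in M1 medium, 4.61 to 5.20 in control). The list summed to 292 to 321 CPM in M1 medium and 229 to 232 in control, of which CSF1R gave 195 CPM on average in M1 medium and 223 in control. Of the others, CTSS, S100A8, S100A9, ITGAM, LYZ, LAPTM5 and CD68 were the 7 higher and SPI1, with CSF1R, the lower ones. The 2 basal markers that could be tested, ITGA6 and KRT14, were lower, and of 4 tested fibroblast and endothelial markers COL1A1 was higher and PDGFRB and VWF lower. The part of macrophage RNA in the rises below was not tested. In bulk RNA, fewer cells of a type and less RNA per cell cannot be told apart.

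Most expressed genes differed between the media. Of the genes tested, 64.9% passed the test, of which 5586 were higher and 5487 lower in M1 medium (32.7% and 32.1%, Benjamini-Hochberg adjusted p under 0.05 in edgeR's quasi-likelihood test, the source of every adjusted p given here), and 1748 were at least 2-fold higher and 1357 at least 2-fold lower (10.2% and 7.95%). The CPM values of the groups did not overlap for 66.2% of genes. The median log2 fold change was -0.0042, so rises and falls were near balance around 0, where the TMM scaling tends to centre genes. This does not mean that genes were level: outside the known lists described below, the median absolute log2 fold change was 0.36. In all, 290 genes were over 16-fold higher and 35 over 16-fold lower. Genes at least 2-fold higher held 10.82 to 11.01% of all counts in M1 medium and 2.70 to 2.82% in control. Genes at least 2-fold lower held 2.45 to 2.67% in M1 medium and 7.66 to 8.44% in control.

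Lists of genes from the well-known programmes hold a minor share of the large changes. The lists need not be complete, so the remaining genes may include members of these programmes. The shares therefore do not measure how much the programmes account for. Of 135 tested inflammatory and NF-kB genes 101 were higher and 12 lower, and of 135 interferon and antigen presentation genes 118 and 4. Of 60 androgen genes 11 were higher and 43 lower, and of 248 cell cycle genes 21 and 214. Together these lists hold 10.6% of the genes at least 2-fold higher and 16.5% of those at least 2-fold lower, which leaves 1563 and 1133. Among all genes outside the lists, 9.47% were at least 2-fold higher and 6.87% at least 2-fold lower.

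**Figure D1:**
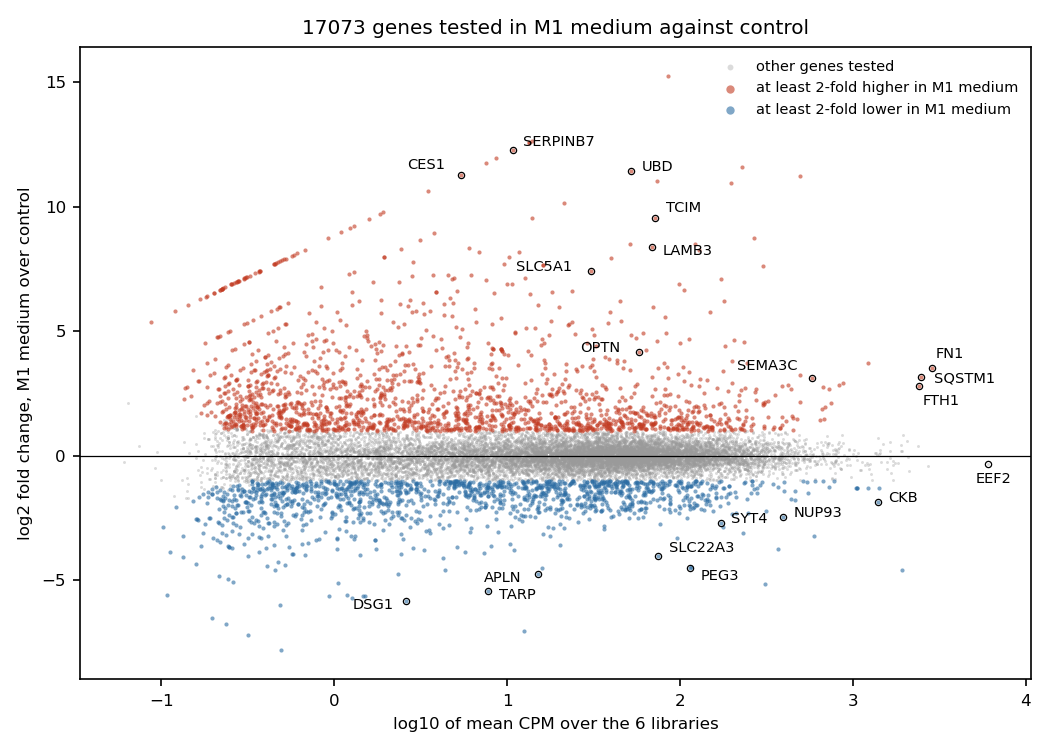
Log2 fold change (M1 medium over control) against the log10 of the mean CPM over the 6 libraries, 1 point per gene for 17073 genes, with genes at least 2-fold higher in red and at least 2-fold lower in blue. Points reach farther above 0 than below it, with 290 genes over 16-fold higher and 35 over 16-fold lower; the slanted line of points at the upper left are genes with no count in control, whose position depends on the small count that the fit adds.

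Only genes that passed the test and whose groups did not overlap were ranked here and below, so their separation is no further evidence. Among coding genes outside those lists that reached 5 CPM, the largest rises were of genes nearly silent in control cells. UBD, which encodes the ubiquitin-like modifier FAT10, had 103, 113 and 95.0 CPM in M1 medium, against 0, 0.0351 and 0.0621 in control. That is 9524 counts against 3, a ratio of 3151 with a 95% counting interval of 1078 to 15282 (log2 fold change 11.44 ± 0.20 SE, edgeR adjusted p = 6.06e-23). SERPINB7, a serpin known from keratinocytes, had 21.3, 24.1 and 19.2 CPM in M1 medium and no count in control, so it was at least 218-fold higher against a floor of 3 counts per library. CES1, a carboxylesterase, had 11.03, 10.64 and 10.90 CPM in M1 medium and again no count in control (at least 110-fold). LAMB3, the beta-3 chain of the basement membrane protein laminin-332, had 131, 131 and 150 CPM in M1 medium and 0.263, 0.597 and 0.372 in control (8.39 ± 0.13, adjusted p = 3.06e-24). For each of these genes, as the ranking required, the lowest M1 library was above the highest control library.

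TCIM, a small regulator of transcription and immune responses, had 131 to 157 CPM in M1 medium and 0.105 to 0.279 in control. The elastase inhibitor elafin (PI3) had 11.8 to 12.1 CPM in M1 medium against 0 to 0.0658 in control, and the lysosomal protease cathepsin S (CTSS), which is also one of the macrophage markers, 26.3 to 30.3 against 0 to 0.0931. The syntenin gene SDCBP2 had 251 to 266 CPM in M1 medium and 0.590 to 0.983 in control, at a locus where its reads can also be given to an antisense gene and to a read-through transcript. The complement genes C4B and C4B_2, which are near-identical copies, had the same values (32.2 CPM on average in M1 medium, 0.152 in control) and are one signal. The SAA2-SAA4 read-through transcript, with 27.0 to 29.7 CPM in M1 medium and no count in control, shares its reads with the serum amyloid genes.

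The largest falls by the same rule left most genes at about 1 CPM or less in M1 medium. The desmosomal cadherin DSG1 had 0.0631, 0.102 and 0.0979 CPM in M1 medium, against 4.61, 5.09 and 5.74 in control (-5.82 ± 0.29, adjusted p = 2.32e-14). TARP, a protein read from the T-cell receptor gamma locus and made in prostate epithelium, had 0.294 to 0.410 CPM in M1 medium and 13.7 to 17.4 in control. APLN, the peptide ligand apelin, had 0.883, 1.09 and 1.31 CPM in M1 medium and 29.7, 30.1 and 27.6 in control (-4.73 ± 0.14, adjusted p = 7.92e-19). Groups were apart for all 3 genes, as the ranking required. SLC22A3, an organic cation transporter, had 7.96 to 9.77 CPM in M1 medium and 134 to 151 in control. The imprinted gene PEG3 had 8.60 to 11.1 CPM in M1 medium and 185 to 241 in control, and its overlapping neighbours ZIM2 and PEG3-AS1 fell by 4.46 and 4.51 on the log2 scale, which the counts cannot separate from PEG3. PHGR1, the secreted glycoprotein STC1, C2orf72, the dehydrogenase gene DHRS2, AFF3 and coagulation factor V (F5) complete this set, with log2 fold changes of -4.58 to -3.66.

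**Figure D2:**
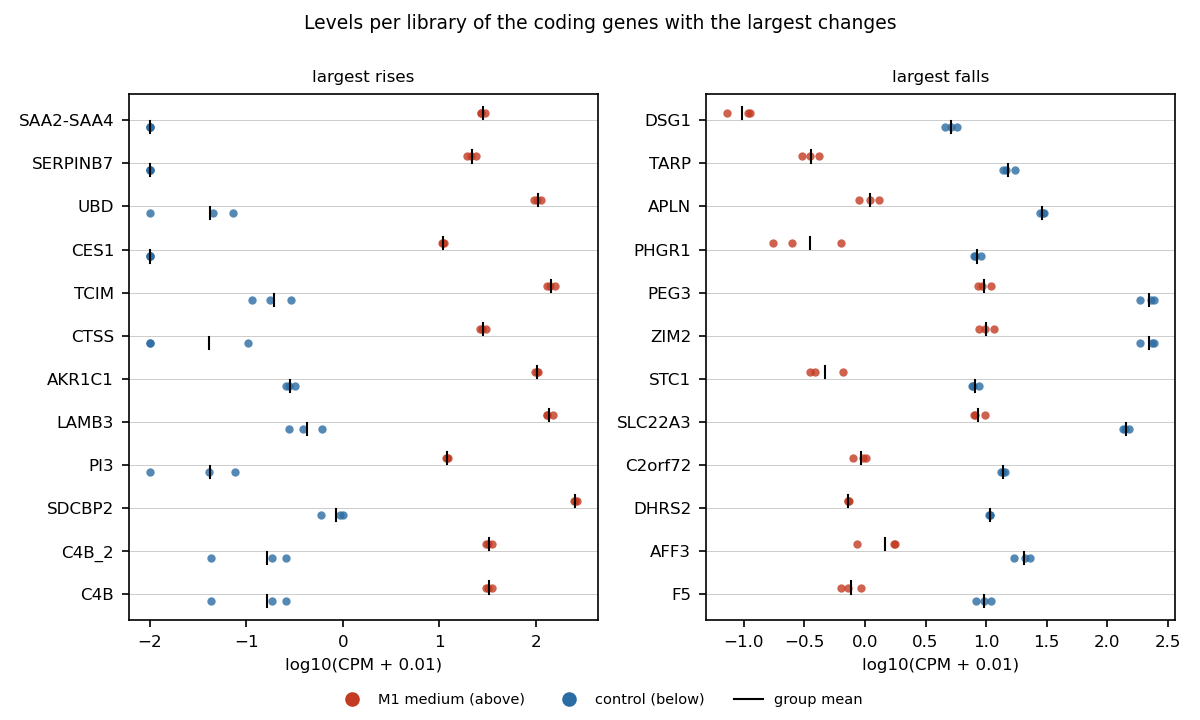
Levels in each library, as log10(CPM + 0.01), of the 12 coding genes with the largest rise (left) and the 12 with the largest fall (right) outside the inflammatory, interferon, androgen and cell cycle lists; each dot is a library, M1 medium in red above control in blue, and the bar is the group mean. No gene has overlapping groups because genes with overlap were left out of the ranking. The risen genes with no count in control sit at the left end of the axis.

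Ranked by CPM gained, an order that favours long and abundant transcripts, other genes led. Fibronectin (FN1), an extracellular matrix glycoprotein, had 5327, 5046 and 5410 CPM in M1 medium, against 464, 431 and 480 in control (3.52 ± 0.11, adjusted p = 2.61e-18). ATIC, which overlaps it by 7728 bases, had 301 CPM on average in M1 medium and 306 in control. SQSTM1, the autophagy receptor p62, had 4476, 4309 and 4673 CPM in M1 medium and 503, 489 and 495 in control (3.18 ± 0.05, adjusted p = 1.41e-24). FTH1, the heavy chain of the iron store ferritin, had 4054, 4305 and 4241 CPM in M1 medium and 610, 620 and 605 in control (2.78 ± 0.04, adjusted p = 3.06e-24). All 3 were far higher in every M1 library, with a spread within groups that was small beside the gap. BEST1, a chloride channel gene that overlaps FTH1 by 1231 bases, had a near-equal log2 fold change of 2.82 and cannot be told apart from it. The secreted guidance factor SEMA3C had 990 to 1091 CPM in M1 medium and 117 to 125 in control. SAT1, which acetylates spermidine and spermine, had 1087 to 1282 CPM in M1 medium and 173 to 176 in control, and the transporter SLC44A4 1224 to 1306 against 191 to 201. The sialyltransferase ST3GAL1, PRUNE2 and thioredoxin reductase (TXNRD1) also gained, with log2 fold changes of 1.95, 1.89 and 0.60.

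Ranked by CPM lost, abundant genes of mixed roles led. The elongation factor EEF2 had 4995 to 5688 CPM in M1 medium and 6486 to 7045 in control, a modest change in relative terms (-0.35 ± 0.05, adjusted p = 3.72e-07). Brain-type creatine kinase (CKB) had 594, 568 and 662 CPM in M1 medium and 2217, 2352 and 2003 in control (-1.85 ± 0.07). Fatty acid synthase (FASN) had 1010 to 1307 CPM in M1 medium and 2193 to 2354 in control, and the fatty acid desaturase FADS2 379 to 474 against 998 to 1062. As the ranking required, these groups did not overlap. NUP93, a scaffold protein of the nuclear pore, had 123, 114 and 125 CPM in M1 medium and 671, 661 and 684 in control (-2.48 ± 0.05, adjusted p = 1.36e-22). MPC2, a subunit of the mitochondrial pyruvate carrier, had 270 to 312 CPM in M1 medium and 775 to 885 in control. SMOC1, SPON2, the peptidase MME and the kinase TAOK3 fell by 0.52, 0.71, 0.85 and 0.96 on the log2 scale.

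The RefSeq promoters of the tested genes were searched for short motifs, and 4 promoters are printed because they show a match close to a start site or against the common direction; they were chosen after the values of their genes were seen. OPTN, the autophagy receptor optineurin, had 112, 109 and 107 CPM in M1 medium and 5.96, 5.58 and 6.95 in control. ZYX, the focal adhesion protein zyxin, had 211, 217 and 236 CPM in M1 medium and 61.6, 61.1 and 54.9 in control. MMP7, the matrix metalloproteinase matrilysin, had 343, 377 and 313 CPM in M1 medium and 2.17, 2.04 and 3.23 in control. All 3 were higher in M1 medium in every library. WNT10A, a Wnt ligand, was lower, with 0.946, 1.29 and 1.50 CPM in M1 medium and 4.02, 3.09 and 2.79 in control (-1.40 ± 0.19, adjusted p = 7.56e-07). It is shown because it is the single gene at least 2-fold lower whose promoter holds this NF-kB motif. The sequences are the 250 bases before the RefSeq start site, on the strand of the gene, from GRCh38.p14: chr10:13099832-13100081 (plus strand) for OPTN, chr7:143381095-143381344 (plus) for ZYX, chr11:102530748-102530997 (minus) for MMP7 and chr2:218880602-218880851 (plus) for WNT10A. Capitals mark a match to the NF-kB motif on either strand in OPTN, ZYX and WNT10A and to the AP-1 motif TGANTCA in MMP7.
OPTN: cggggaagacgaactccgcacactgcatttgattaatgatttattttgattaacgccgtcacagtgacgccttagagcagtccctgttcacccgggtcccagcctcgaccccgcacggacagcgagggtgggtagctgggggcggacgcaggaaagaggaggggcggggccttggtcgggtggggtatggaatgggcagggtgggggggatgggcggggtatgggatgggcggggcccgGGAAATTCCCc
ZYX: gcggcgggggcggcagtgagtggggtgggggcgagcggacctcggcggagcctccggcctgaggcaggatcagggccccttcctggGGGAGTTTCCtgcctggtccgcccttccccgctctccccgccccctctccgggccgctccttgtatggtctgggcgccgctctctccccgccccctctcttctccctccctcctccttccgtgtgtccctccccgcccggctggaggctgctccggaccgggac
MMP7: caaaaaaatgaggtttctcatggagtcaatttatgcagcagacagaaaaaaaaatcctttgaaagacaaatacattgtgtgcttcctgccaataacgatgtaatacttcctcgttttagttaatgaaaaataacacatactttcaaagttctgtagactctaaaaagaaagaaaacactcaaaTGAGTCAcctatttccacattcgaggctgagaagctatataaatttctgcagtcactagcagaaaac
WNT10A: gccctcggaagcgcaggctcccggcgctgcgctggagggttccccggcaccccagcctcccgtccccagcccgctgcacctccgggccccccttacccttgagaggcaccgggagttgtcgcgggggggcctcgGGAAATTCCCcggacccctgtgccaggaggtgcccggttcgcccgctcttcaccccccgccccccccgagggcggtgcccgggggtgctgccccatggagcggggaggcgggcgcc

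The first base of the match lies 11 bases before the start site in OPTN, 164 in ZYX, 67 in MMP7 and 116 in WNT10A. The window searched was 250 bases before to 50 after the start, on both strands, and was available for 13049 tested genes. The NF-kB motif was found in 2.18% of the 1282 promoters of genes at least 2-fold higher, in 0.0999% of the 1001 of genes at least 2-fold lower and in 0.598% of all tested. Outside the known lists the shares were 1.32% and 0.122%. The AP-1 motif was found in 9.83% of the promoters of genes higher, 4.00% of those lower and 5.02% of all, and 9.83% and 4.51% outside the known lists. The interferon-stimulated response element was found in 6.55%, 2.80% and 2.85%, and in 4.04% and 2.56% outside the lists. A palindromic NF-kB spelling, which shares matches with the first, was found in 1.09%, 0.300% and 0.460%, and in 0.527% and 0.366% outside the lists, near the share of all.

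Promoters of changed genes also differed from the rest in general make-up. The TATA box letters TATAAA were found in 11.8% of the promoters of genes higher, 8.99% of those lower and 6.64% of all. The ETS motif CCGGAAGT was found in 1.40%, 3.00% and 7.84%, and the GC box GGGCGG in 53.9%, 61.4% and 66.0%. A ratio of observed to expected CpG over 0.6 was found in 52.6%, 67.7% and 76.6%. CCAAT was found in 34.0%, 43.2% and 36.5%, the element TTTGAA in 13.1%, 18.1% and 10.3%, and the E2F letters TTCCCGC in 6.79%, 11.3% and 9.56%. Outside the known lists the shares among genes lower were 39.4% for CCAAT, 14.1% for TTTGAA and 9.15% for the E2F letters, the last below that of all. The STAT motif TTCNNNGAA was found in 7.57%, 7.19% and 6.49%, and the androgen response element core AGAACA in 12.2%, 11.5% and 9.84%. Matches are letters in a window and were not measured as binding.

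Genes of oxidative stress defence, autophagy and iron handling rose more often than they fell. Among all genes tested 32.7% were higher and 32.1% lower, and 10.2% and 7.95% by at least 2-fold. Of 50 tested genes of glutathione, thioredoxin and the NRF2 response, 31 were higher and 8 lower, 16 and 0 by at least 2-fold (median log2 fold change 0.41, against -0.0042 over all genes). The aldo-keto reductases AKR1C1, AKR1C2 and AKR1C3, which reduce steroids and aldehydes, led the list. AKR1C1 had 103, 106 and 96.7 CPM in M1 medium and 0.263, 0.246 and 0.310 in control, and AKR1C2 and AKR1C3 rose by log2 fold changes of 6.60 and 6.48. They are close paralogs and may share reads. GGT1, PRDX4 and GSTO2 fell by 0.62, 0.50 and 0.71.

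Of 42 autophagy genes 26 were higher and 8 lower, 7 and 0 by at least 2-fold (median 0.46). That is 61.9% higher and 16.7% at least 2-fold higher, against 32.7% and 10.2% of all genes. Without M1 replicate 3 the lower ones numbered 3. OPTN and SQSTM1, both receptors that link cargo to the autophagosome, had the largest rises (4.14 and 3.18). GABARAPL1, which coats the autophagosome membrane, had 90.3 to 93.9 CPM in M1 medium and 25.7 to 26.5 in control. The kinase ULK2 (-0.59) and MAP1LC3A (-0.44) fell. SQSTM1 overlaps MGAT4B and MRNIP at its ends, and MRNIP, at 207 CPM in M1 medium and 20.1 in control, moved by a like amount. Of 32 iron and copper genes 16 were higher and 5 lower, 6 and 0 by at least 2-fold (median 0.18). That is 50% higher and 18.8% at least 2-fold higher. Besides FTH1, lactoferrin (LTF) had 26.3 to 31.0 CPM in M1 medium and 2.63 to 3.29 in control, and the transferrin receptor TFRC, which brings iron into the cell, 589 to 627 against 281 to 312. The mitochondrial iron importer SLC25A37 fell by 0.86 on the log2 scale. Metallothioneins, which bind zinc and copper, went the other way: 4 of 5 tested were lower and 0 higher, beside 32.1% lower among all genes. MT1X had 8.52 to 9.77 CPM in M1 medium and 20.1 to 24.0 in control.

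**Figure D3:**
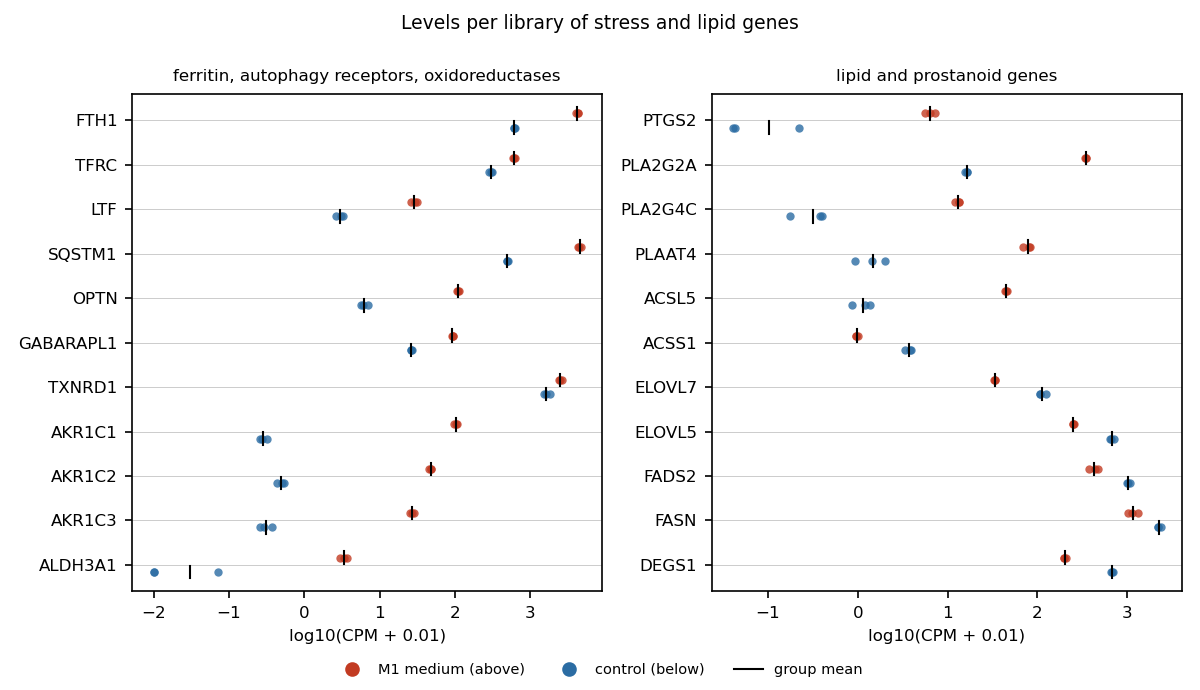
Levels in each library, as log10(CPM + 0.01), of stress and iron genes (left) and lipid and prostanoid genes (right); each dot is a library, M1 medium in red above control in blue, and the bar is the group mean. All 11 genes on the left are higher in M1 medium; on the right PTGS2, PLA2G2A, PLA2G4C, PLAAT4 and ACSL5 are higher and ACSS1, ELOVL7, ELOVL5, FADS2, FASN and DEGS1 lower.

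Lipid genes changed in both directions, beside 32.7% higher and 32.1% lower among all genes tested. Of 49 lipid synthesis and droplet genes 17 were higher and 23 lower (median -0.15). ACSL5, which activates long-chain fatty acids, had 43.8 to 45.5 CPM in M1 medium and 0.856 to 1.37 in control, while the elongases ELOVL7 and ELOVL5 fell by 1.77 and 1.41 and the acetyl-CoA synthetase ACSS1 by 1.94. Of 39 eicosanoid and phospholipase A2 genes 16 were higher and 14 lower, 11 and 7 by at least 2-fold. The secreted phospholipase PLA2G2A had 351, 348 and 338 CPM in M1 medium and 15.8, 16.6 and 16.3 in control (4.41 ± 0.07, adjusted p = 3.83e-24). Cyclooxygenase 2 (PTGS2) had 5.64 to 7.14 CPM in M1 medium and 0.0310 to 0.211 in control, and the phospholipases PLAAT4 and PLA2G4C rose by 5.76 and 5.38. ALOXE3 (-1.80) and the prostaglandin transporter SLCO2A1 (-1.53) fell. Of 45 sphingolipid genes 29 were higher and 7 lower (median 0.34), but 3 and 4 by at least 2-fold. Those shares were 6.67% and 8.89%, against 10.2% and 7.95% of all genes. SPTLC3 (2.20), UGCG (1.37) and SGMS1 (1.33), which act in the synthesis of sphingoid bases, glucosylceramide and sphingomyelin, rose. DEGS1, the desaturase that makes ceramide, had 198 to 210 CPM in M1 medium and 655 to 690 in control. CERS1 and GDF1 lie on a shared transcript and fell by the same 1.03.

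Central metabolism and biosynthesis leaned downwards, by small amounts, beside 32.7% higher and 32.1% lower among all genes tested. Of 75 oxidative phosphorylation subunits 9 were higher and 30 lower (median -0.12), and of 22 TCA cycle genes 5 and 14 (median -0.21), with 1 of the first list and 0 of the second at least 2-fold changed. With all libraries 40% of the oxidative phosphorylation subunits were lower and 12% higher. Without M1 replicate 3, 19 of them were lower, so this count depends on 1 library. Of 29 purine and pyrimidine synthesis genes 3 were higher and 22 lower (median -0.39, the lowest outside the known and marker lists among lists of 10 or more tested genes). IMPDH2, which commits IMP to guanine nucleotides, had 326 to 345 CPM in M1 medium and 648 to 653 in control. TYMP, thymidine phosphorylase, was the single one at least 2-fold higher, at 241 to 282 CPM in M1 medium and 25.6 to 34.6 in control, and it overlaps SCO2 by 691 bases. Of 28 serine, one-carbon and methionine genes 7 were higher and 17 lower (median -0.31), with PHGDH, the entry to serine synthesis, at -0.95. Fatty acid oxidation and peroxisome genes were balanced (15 higher, 18 lower of 51), with 29.4% and 35.3%, near the shares of all genes. Of 21 kynurenine and NAD genes 10 were higher and 5 lower, and KMO, kynurenine 3-monooxygenase, had 10.1 to 13.4 CPM in M1 medium and 0.296 to 0.838 in control. Of 27 cytochrome P450 genes 12 were higher and 6 lower, led by CYP2C18 (3.82). Of 26 aldehyde dehydrogenase and retinoid genes 10 were higher and 8 lower (38.5% and 30.8%, near the shares of all genes). The largest rise there was of ALDH3A1 (305 counts in M1 medium and 2 in control, a ratio of 151 with a counting interval of 41.5 to 1256).

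Ribosome, nuclear pore and splicing genes were lower more often than all genes (32.1%) and higher less often (32.7%). Of 82 cytosolic ribosomal protein genes 10 were higher and 49 lower (median -0.22), of 72 mitochondrial ones 5 and 33 (median -0.14), and of 80 ribosome biogenesis genes 12 and 44 (median -0.16). Without M1 replicate 2 the higher ones among the ribosomal proteins numbered 6 and 3. RPS2 had 174 to 187 CPM in M1 medium and 296 to 310 in control, and TCOF1, a factor in ribosomal RNA transcription, fell by 1.03. RPS29 is listed among the rises at 0.68 but has the opposite sign when its longest transcript is used (-0.35). Of 58 nuclear pore and transport receptor genes 8 were higher and 35 lower (median -0.29), with NUP93 the single one at least 2-fold lower. Of 99 splicing factors 20 were higher and 50 lower (median -0.15). MBNL2, a splicing regulator, went against this with 42.4 to 43.5 CPM in M1 medium and 6.25 to 7.38 in control. Translation factors (14 higher and 21 lower of 65), RNA polymerase and Mediator subunits (17 and 23 of 65) and chromatin genes (30 and 36 of 111) were lower in 32.3%, 35.4% and 32.4% of cases, near the 32.1% of all genes. Of 46 excision and end-joining repair genes 9 were higher and 20 lower, with PARP1 at -1.19. For these gene-expression lists no more than 3.6% of tested members were at least 2-fold lower, against 7.95% of all genes; for the repair genes the share was 6.52%.

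The vesicle coat and ER genes of the secretory route leaned upwards by small amounts, beside 32.7% higher and 32.1% lower among all genes tested. Of 46 COPI and COPII vesicle genes 30 were higher and 7 lower (median 0.21). Of 42 genes of ER translocation and N-glycosylation 24 were higher and 5 lower (median 0.19). At least 2-fold higher were 4.35% of the vesicle list and 4.76% of the ER list, below the 10.2% of all genes. Of the ER list, 2 were lower without M1 replicate 3 and 3 without M1 replicate 1. SEC11C, of the signal peptidase, rose by 1.51, SRP54, of the signal recognition particle, by 1.11, and the coat protein SEC24D by 0.94, whereas ERGIC1 fell by 0.91. Of 54 Rab GTPases 26 were higher and 15 lower, but 1 and 5 by at least 2-fold. Those shares were 1.85% and 9.26%, against 10.2% and 7.95% of all genes. RAB7B rose by 4.16, and RAB3A, known from regulated secretion, fell by 1.71. The synaptotagmin and exocytosis genes were evenly split at 2-fold (6 and 6 of 47, 12.8% each). SYTL2, a Rab27 effector, had 158, 166 and 159 CPM in M1 medium and 4.02, 2.95 and 3.20 in control. SYT4 had 46.2, 44.0 and 46.4 CPM in M1 medium and 294, 288 and 317 in control (-2.72 ± 0.06, adjusted p = 1.52e-21).

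Among epithelial surface genes, 2 lists held high shares of large changes, but only 11 of 22 and 14 of 43 members could be tested. A rare gene can pass the filter through 1 high group alone, which may raise such shares. Of all genes under 1 CPM 22.7% were at least 2-fold higher, and of those from 1 to 10 CPM 14.6%. Among all genes tested 32.7% were higher and 32.1% lower. Of 11 tested mucin, trefoil and anterior gradient genes 6 were higher and 3 lower (median 1.30), all 6 by at least 2-fold (54.5%, against 10.2% of all genes). MUC20 (4.08), TFF1 (3.00) and MUC1 (2.76) rose, while MUC5AC (-1.66) and TFF3 (-1.15) fell. The disulfide isomerase AGR2 had 38.3 to 47.2 CPM in M1 medium and 15.1 to 18.3 in control. Of 14 carcinoembryonic antigen and LY6 genes 7 were higher and 4 lower (median 0.82), all 7 by at least 2-fold (50%). CEACAM6 had 3.56 to 4.04 CPM in M1 medium and 1 count in all 3 control libraries, a ratio of 351 with a counting interval of 62.7 to 13917. CEACAM5 and CEACAM1 rose by 4.90 and 3.84, and LY6E fell by 0.50. Of 26 tetraspanins 11 were higher and 8 lower, with TSPAN15 at 197 to 200 CPM in M1 medium and 43.6 to 55.2 in control, and CD9 at 415 to 468 in M1 medium and 864 to 961 in control. Claudins CLDN12 (1.66) and CLDN4 (1.40) rose with the scaffold TJP3 (1.45), and TJP1 fell by 0.61 (14 of 27 tight junction genes higher, 7 lower, with 11.1% and 3.70% at least 2-fold higher and lower, near or below the shares of all genes). The epidermal envelope genes were split, 7 higher and 7 lower of 19, with TGM5 at 4.83 and HRNR, which had 3 counts in M1 medium and 167 in control, with a ratio of control over M1 medium of 56.1 (18.9 to 275).

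Glycan and matrix enzymes rose more often than they fell. Beside the lists below, 32.7% of all genes tested were higher and 32.1% lower, and 10.2% and 7.95% by at least 2-fold. Of 58 sialyl-, fucosyl- and N-acetylgalactosaminyltransferase and related Golgi genes 29 were higher and 9 lower, 14 and 2 by at least 2-fold. ST3GAL1, which caps O-linked glycans with sialic acid, had 1042 to 1134 CPM in M1 medium and 263 to 295 in control, and ST6GAL1, which adds sialic acid to N-linked glycans, 36.7 to 42.9 against 3.41 to 4.05. GCNT3, which branches mucin glycans, rose by 4.40, and GALNT3, which starts them, fell by 1.04. Of 53 glycosaminoglycan genes 24 were higher and 9 lower, 15 and 4 by at least 2-fold, with the sulfotransferases CHST2 (5.00), CHST11 (2.92) and HS3ST1 (2.67) among those that rose and EXTL2 (-1.30) and HS3ST4 (-1.39) among those that fell. Of 66 actin cytoskeleton genes 40 were higher and 9 lower (median 0.36). Gelsolin (GSN) had 154, 149 and 157 CPM in M1 medium and 17.3, 17.9 and 17.3 in control, and LASP1 rose with ZYX (1.99 and 1.90), while caldesmon (CALD1) fell by 1.00. All 36 called among 52 clustered protocadherins were higher (median 0.32), but without control replicate 2 this count was 13, and the genes share 3′ exons in part, so they are not independent. Of 8 annexins 4 were higher and 2 lower, ANXA1 by 1.89.

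**Figure D4:**
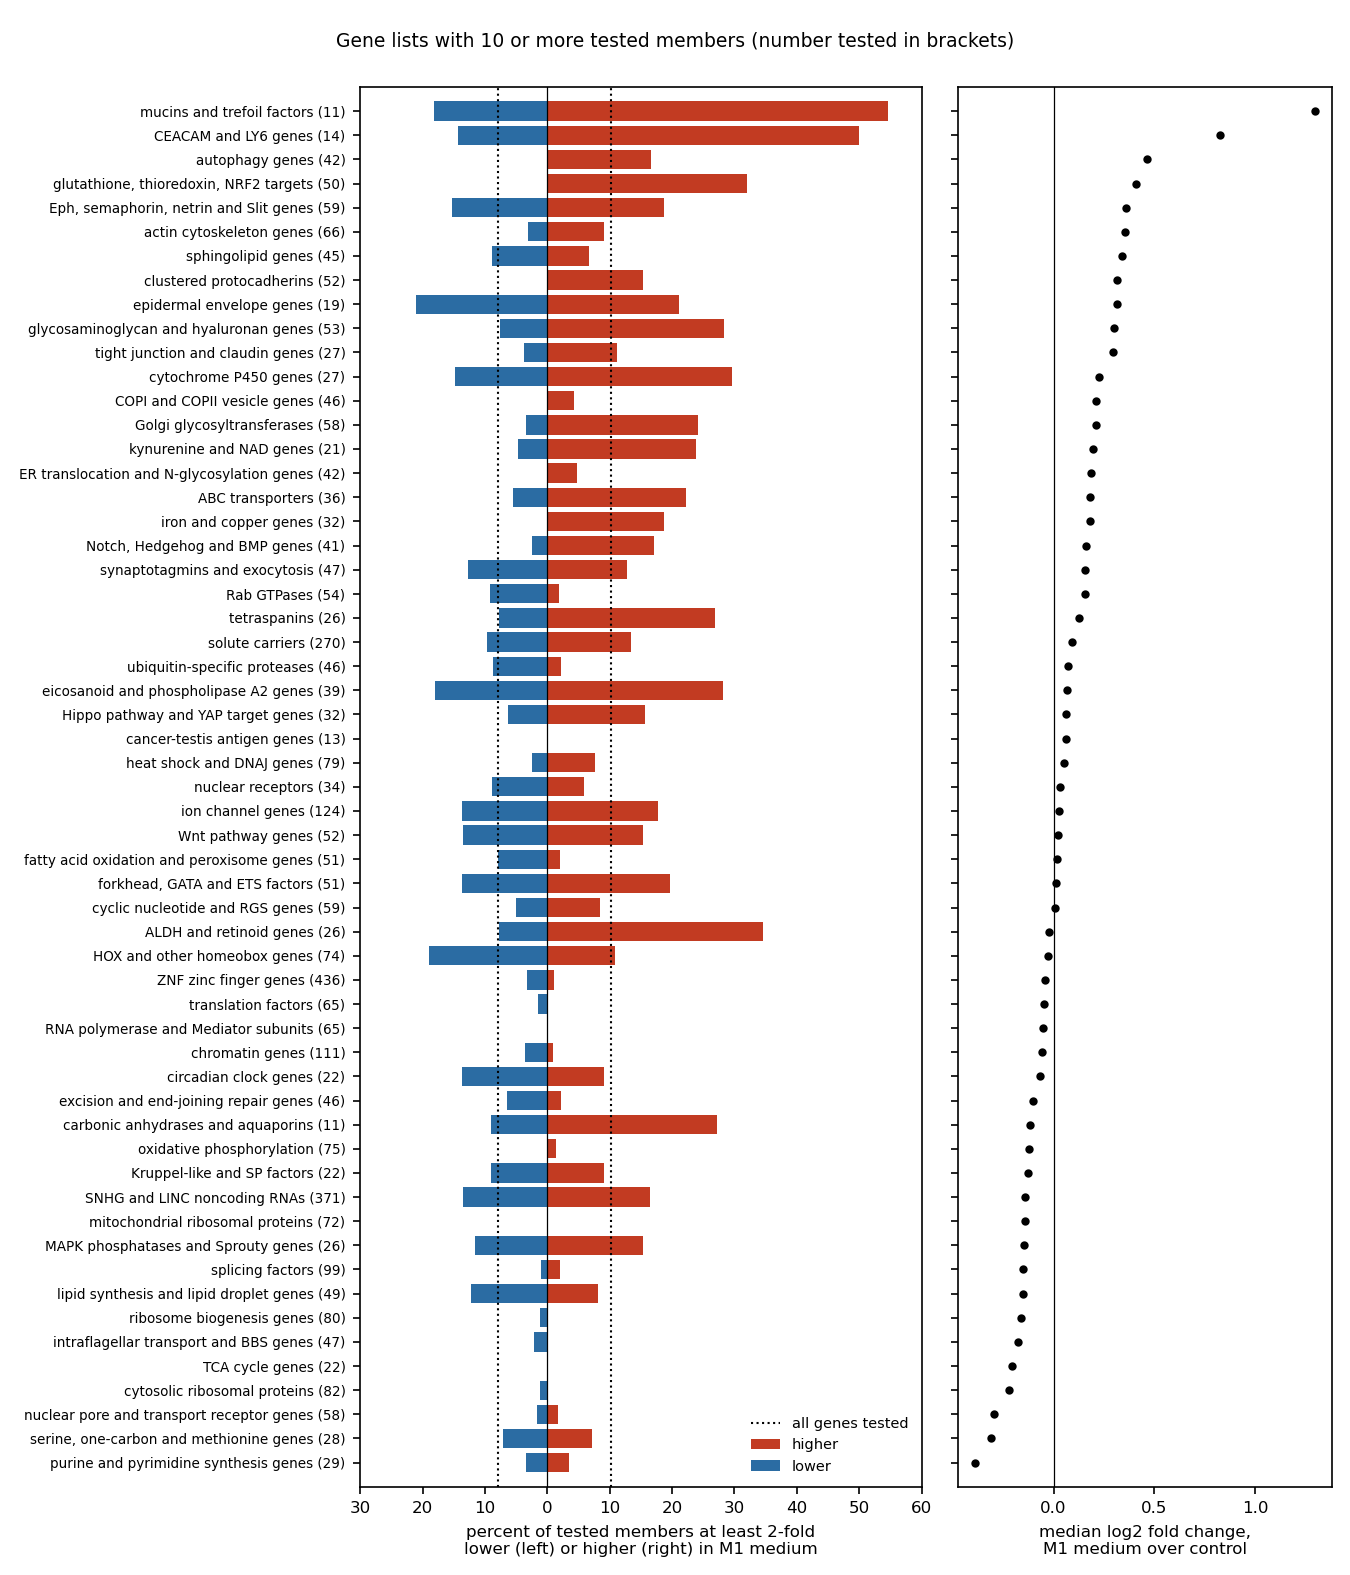
Left, the percentage of tested members at least 2-fold higher (red, to the right) or lower (blue, to the left) in M1 medium for the gene lists reported here with 10 or more tested members, with dotted lines at the shares over all genes tested (10.2% and 7.95%); right, the median log2 fold change of each list. Mucin and carcinoembryonic antigen genes lie at the top with medians of 1.30 and 0.82, and purine and pyrimidine synthesis at the bottom with -0.39.

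Signalling genes changed in both directions within most families, near the shares of all genes tested (32.7% higher and 32.1% lower). In the lists below 28.8 to 38.5% were higher and 28.8 to 34.6% lower, except that 49.2% of the Eph and semaphorin list were higher. Among feedback inhibitors of the ERK pathway, SPRY4 had 21.0, 21.3 and 21.5 CPM in M1 medium and 0.165, 0.140 and 0.217 in control, and the ERK phosphatases DUSP6 and DUSP5 rose by 4.43 and 4.04. DUSP4 and SPRY1 of these families fell by 1.70 and 1.29 (10 higher and 9 lower of 26). Of 59 Eph, semaphorin, netrin and Slit genes 29 were higher and 17 lower (median 0.36), with the netrin NTN1 at 3.04 and its receptor UNC5A at -2.67. Of 52 Wnt pathway genes 20 were higher and 18 lower, among them LEF1 (2.52) and WNT4 (2.32), and FZD4 (-1.67) and LGR4 (-1.25). BAMBI, a decoy receptor for TGF-beta and BMP, had 132 to 141 CPM in M1 medium and 23.8 to 27.0 in control, in a Notch, Hedgehog and BMP list with 15 higher and 12 lower of 41. The stress-induced ligand GDF15 had 2066 to 2412 CPM in M1 medium and 1490 to 1724 in control (0.42 ± 0.07). Of 32 Hippo genes 12 were higher and 11 lower, with AMOTL1 at -3.74 and the YAP paralog WWTR1 at -2.51. Of 59 cyclic nucleotide and RGS genes 17 were higher and 17 lower, with the phosphodiesterases PDE4B at 5.65 and PDE3A at -1.84.

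Transcription factors also split within families, as did all genes tested (32.7% higher and 32.1% lower). In the lists below 18.2 to 31.4% were higher and 28.4 to 45.5% lower. ELF3, an epithelial ETS factor, had 446, 458 and 461 CPM in M1 medium and 33.5, 37.6 and 33.7 in control (3.70 ± 0.06, adjusted p = 1.1e-23), and ETV4 and ETV5, ETS factors downstream of ERK, rose by 4.01 and 3.23. EHF, another epithelial ETS factor, fell by 0.49 (16 higher and 20 lower of 51 forkhead, GATA and ETS genes). KLF4 had 66.2 to 77.9 CPM in M1 medium and 19.4 to 19.9 in control, and KLF15 fell by 1.10 (5 higher and 10 lower of 22 Kruppel-like and SP genes). Of 74 HOX and other homeobox genes 21 were higher and 21 lower, 8 and 14 by at least 2-fold; POU2F3 (1.99) and HOXB9 (1.76) rose, and DLX1 (-2.74) and HOXA5 (-1.92) fell. Of 34 nuclear receptors 10 were higher and 13 lower, with RARB, a retinoic acid receptor, at 0.631 to 1.08 CPM in M1 medium and 5.65 to 6.72 in control. Among 22 clock genes NFIL3 rose by 1.57, and HLF and DBP, PAR-domain factors, fell by 2.17 and 1.55 (4 higher, 9 lower). Of 436 ZNF zinc finger genes, 5 were at least 2-fold higher and 14 at least 2-fold lower (1.15% and 3.21%).

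Transporter genes held single large changes in both directions. Of 270 solute carriers 118 were higher and 88 lower, 36 and 26 by at least 2-fold (13.3% and 9.63%, against 10.2% and 7.95% of all genes). SLC5A1, the sodium-coupled glucose transporter SGLT1, had 57.8, 65.0 and 59.1 CPM in M1 medium and 0.198, 0.386 and 0.465 in control (7.41 ± 0.15, adjusted p = 6.43e-22). The amino acid transporter SLC6A14 and the nucleoside transporter SLC28A3 had no count in control and 1.10 to 1.43 and 2.14 to 2.32 CPM in M1 medium (at least 12.4-fold and 22.2-fold). SLC38A4 and SLC22A11 fell with SLC22A3 (-5.12, -3.22 and -4.03). Of 36 ABC transporters 18 were higher and 9 lower, with ABCA1 (3.61), the exporter of cholesterol to lipoproteins, ABCA4 (3.71) and CFTR (4.47) the largest rises. Of 124 ion channel genes 40 were higher and 32 lower (32.3% and 25.8%, against 32.7% and 32.1% of all genes), and KCNMA1, the large-conductance potassium channel, had 15.4 to 19.2 CPM in M1 medium and 93.5 to 101 in control. The carbonic anhydrase CA12 had 175, 177 and 180 CPM in M1 medium and 18.1, 18.5 and 18.6 in control, in a list of carbonic anhydrases and aquaporins with 4 higher and 3 lower of 11.

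Other families were near balance or changed by small amounts. Heat shock and DNAJ genes were near balance (31 higher and 24 lower of 79, median 0.05), with DNAJC12 at 129 to 145 CPM in M1 medium and 10.8 to 12.9 in control. Of 46 ubiquitin-specific proteases 15 were higher and 14 lower. Of 47 intraflagellar transport and Bardet-Biedl genes, which build cilia, 5 were higher and 22 lower (median -0.17). Of 13 cancer-testis antigen genes 3 were higher and 1 lower, and the 3 that rose (MAGEA3, MAGEA6 and MAGEA12) are close copies. Among genes of high CPM that stayed level, actin beta (ACTB) had 2008 to 2083 CPM in M1 medium and 2063 to 2158 in control (-0.06 ± 0.04, adjusted p = 0.174), and EEF1A2 and EIF4G2 had log2 fold changes of 0.04 ± 0.07 and 0.08 ± 0.05 (EIF4G2 passed the test, at 0.14, without control replicate 3). In all, 378 genes of at least 100 CPM lay within 0.2 of 0 on the log2 scale with their 95% interval from the SE.

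Some neighbouring genes moved in one direction. Runs of 4 or more adjacent tested coding genes at least 2-fold changed in one direction numbered 27 higher and 6 lower. They include runs of genes from the known lists, such as HLA-DRA to HLA-DOB, GBP3 to GBP5 and, among the lower ones, ACP4 to KLK4. Some runs hold transcripts that share reads, and the number of runs to be met by chance was not worked out. The UGT1A genes on chromosome 2 (233617633 to 233773300, GRCh38), enzymes of glucuronidation, had 9 members with log2 fold changes of 4.20 to 4.54; their transcripts share 3′ exons, so this is close to 1 signal, at 14.2 to 15.8 CPM of UGT1A1 in M1 medium and 0.562 to 0.714 in control. A keratin run on chromosome 12 (52168996 to 52652211) held KRT80, KRT7, KRT86, KRT75, KRT6B, KRT6C, KRT6A and KRT2. KRT7 had 2.28 to 4.18 CPM in M1 medium and no count in control (at least 31.9-fold). The KRT6 genes are near-identical copies. A run on chromosome 11 held TMEM123 and the metalloproteinase genes MMP7, MMP10, MMP1, MMP12 and MMP13, of which MMP7 is described above and MMP12 and MMP1 had 1 and 2 counts in control. On chromosome 4, GUCY1A1 and GUCY1B1, the subunits of the nitric oxide receptor guanylate cyclase, rose by 1.55 and 1.21 beside TDO2 (at least 7.55-fold, with no count in control), CTSO, GASK1B and TMEM144.

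The lower runs include the desmosomal cadherin cluster on chromosome 18. DSC2 had 84.3, 83.5 and 80.1 CPM in M1 medium and 265, 231 and 287 in control, and DSG2 157, 160 and 145 against 318, 307 and 337. DSC3, DSC1 and DSG1 fell by 1.10, 3.36 and 5.82, and AQP4, next to them in the order of tested genes, by 2.91. All 5 cadherins of the cluster that were tested were therefore lower, while desmoplakin (DSP), the protein that ties them to keratin, was higher (0.44 ± 0.12). A run on chromosome 14 held PLEK2, TMEM229B, PLEKHH1, PIGH and the arginase ARG2 (73.3 to 77.8 CPM in M1 medium, 234 to 268 in control). By chromosome, the share of genes at least 2-fold higher was 16.8% on chromosome 6 (13.8% without the known lists) and 5.92% on chromosome 19, and the share at least 2-fold lower was 14.1% on chromosome 18 (13.1% without the known lists), against 10.2% and 7.95% over all genes.

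**Figure D5:**
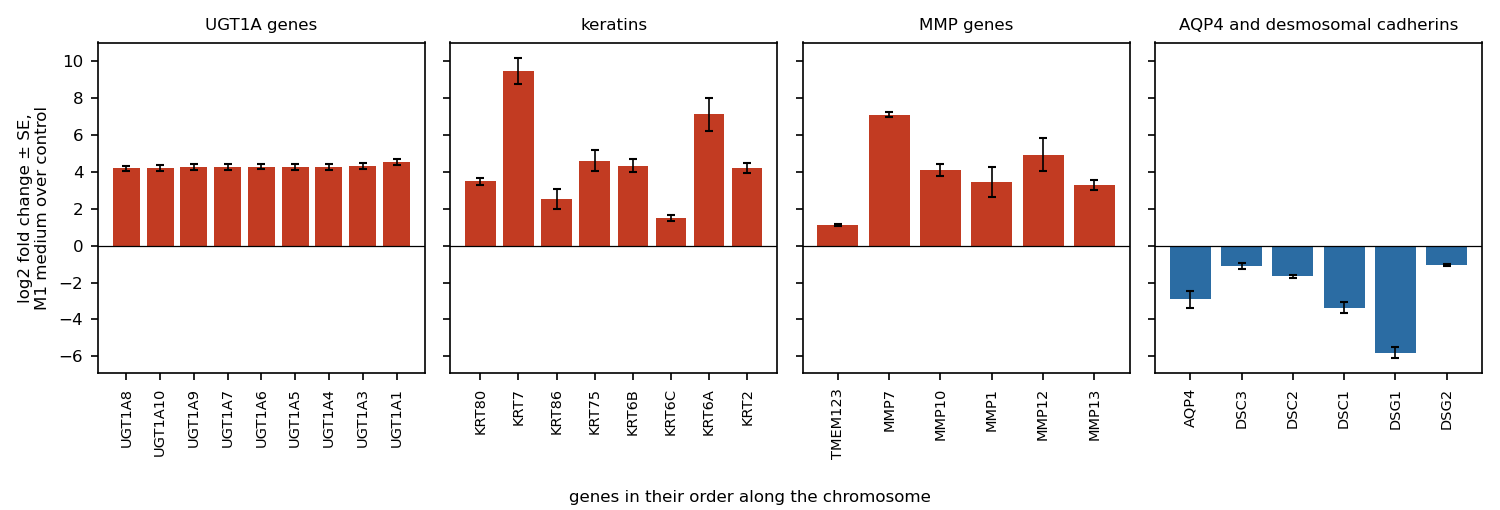
Log2 fold changes (M1 medium over control) with SE bars for 4 runs of neighbouring genes, in their order along the chromosome. The 9 UGT1A bars are nearly level at 4.20 to 4.54 (their transcripts share exons), the keratin and MMP bars differ from gene to gene, with those of KRT7 and KRT6A, which have no count in control, set in part by the small count that the fit adds, and all 6 genes of the desmosomal cadherin run lie below 0.

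Noncoding genes were called less often than coding ones, but had a larger median SE (0.15 against 0.08). Their median absolute log2 fold change was 0.41, against 0.36 for coding genes, so the lower share called does not show smaller changes. Of 3323 noncoding transcripts tested 55.8% passed the test, against 67.0% of the 13750 coding ones, and 325 were at least 2-fold higher and 305 at least 2-fold lower. Those shares, 9.78% and 9.18%, are near the 10.2% and 7.95% over all genes. LINC02015 had 7.34 to 7.79 CPM in M1 medium and 1 count in control, a ratio of 686 with a counting interval of 123 to 27128, and LINC02009 had 572 counts in M1 medium and 1 in control, a ratio of 568 (101 to 22463). LUCAT1 had 8.73, 9.05 and 9.27 CPM in M1 medium and 0.0329, 0 and 0.124 in control. GUCY1B2 had 433 counts in M1 medium and 3 in control, a ratio of 143 (48.7 to 697). KRT7-AS, antisense to KRT7, was at 1.14 CPM on average in M1 medium and had no count in control (at least 11.6-fold). ARLNC1, a noncoding RNA known from prostate cancer, had 0.0979 to 0.204 CPM in M1 medium and 4.46 to 4.67 in control. DSG1-AS1, PEG3-AS1, PSLNR and LINC01049 fell by 5.61, 4.51, 3.80 and 3.74. Among 371 SNHG and LINC genes 91 were higher and 127 lower (median -0.14). The use of strand in counting is not given in the sources used here, so antisense genes cannot be told apart from their partners. This touches DSG1 with DSG1-AS1, GSN with GSN-AS1 (log2 fold changes of 3.13 and 3.80) and KCNMA1 with KCNMA1-AS1 (-2.50 and -2.56).

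The share of genes called grew with their level, while the share of large changes was highest at low levels. The share called was 45.3% for genes under 1 CPM, 60.0% from 1 to 10 CPM, 69.0% from 10 to 100 and 76.4% at 100 CPM or more, and the median SE fell to 0.06 for the most abundant genes, against 0.41 for those under 1 CPM. Of the genes under 1 CPM 22.7% were at least 2-fold higher and 15.5% at least 2-fold lower, against 6.85% and 4.78% at 100 CPM or more. These shares depend in part on the method. A rare gene can pass the filter through 1 high group alone, and with a large SE mainly large estimates pass the test. Across the 15087 tested genes with a transcript length, the log2 fold change had a Spearman correlation of 0.06 with length, over genes that share the same 6 libraries.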

How the data were processed

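Polyadenylated RNA was sequenced as paired reads, per the labels' protocols. Trimmomatic, BWA 0.7.17 and HOMER 4.10 are named with build hg38 in the submitters' processing notes; the sources used here give neither their roles nor the use of strand nor the handling of reads with several matches. The deposited table holds the authors' estimated counts per RefSeq transcript, in steps of 0.5, and these were rounded to whole numbers. Of 70507 transcripts, 334 matched no gene name and stayed out (0.0887 to 0.0896% of counts in M1 medium, 0.107 to 0.109% in control). The remaining rows gave 28100 genes, of which 17073 passed edgeR's filter on low counts.

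Genes were compared with edgeR 4.0.16 (R 4.3.3): a quasi-likelihood fit with TMM scaling and 1 mean per group on all 18 libraries, Benjamini-Hochberg adjustment over all tested genes, and the SE taken from the fold change and its F statistic. Replicate numbers did not pair the libraries. A group at 0 was set to a floor of 3 counts per library (0.0931 to 0.105 CPM in control), and ratios resting on 1 to 3 counts have exact 95% intervals; floors and intervals cover counting error only. The fit was tested on simulated data. Genes and lists were chosen with earlier results of these data known. Named genes are the 12 largest rises and falls and the 10 largest gains and losses of CPM outside the known lists, the 5 largest noncoding changes, list members by size of change or level, and runs of neighbours. The ranked rises, falls, gains, losses and noncoding changes had to pass the test with no overlap between the groups. Promoters are from RefSeq, GRCh38.p14. Alternatives were DESeq2 1.42.0, other scaling, filters, transcripts and library sets. Some genes and lists are not reported here.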

Additional observations from a re-analysis of the deposited data

How the results depend on the processing

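No count of genes moved by over 1.5 times under the 14 alternatives. With 1 library left out, the genes higher in M1 medium numbered 5292 to 5442, the genes lower in M1 medium 5057 to 5302, the genes at least 2-fold higher in M1 medium 1757 to 1799 and the genes at least 2-fold lower in M1 medium 1335 to 1384. The replicate numbers did not pair the libraries (correlations of deviations of 0.017, 0.058 and -0.019), and the fit with the replicate number as a block gave 5562 higher and 5457 lower. DESeq2 shared 10850 of the 11073 calls in the same direction. Of 235 tested genes named here, 5 reversed, all with the longest transcript (RPS29 at -0.35, DIPK1A at 0.94, HOXC4 at 0.60, PCDHGA8 at -0.40 and DUXAP9 at -0.29). The cause was not tested. Of these only RPS29 is named in the results above. The others are named because their sign changed, so the 5 are not a rate among genes named beforehand. EIF4G2 gained a call, and PCDHGA8 lost it with the 2 groups alone and without control replicate 2 or M1 replicate 3 (adjusted p of 0.0659, 0.129 and 0.111 in edgeR). Of 1792 list counts, 19 moved by over 1.5 times, 10 of them by over 2 genes; those due to 1 library are given in the text, and removing the length trend left 14 oxidative phosphorylation subunits higher, against 9. Depth limits the genes under 1 CPM, whose median SE was 0.41.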

Other observations

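The choice of transcript changed the sign of 5 genes among 10892 called with both the most counted and the longest transcript. DIPK1A had log2 fold changes (M1 medium over control) of -0.29 with the most counted transcript and 0.94 with the longest, and HOXC4 of -0.30 and 0.60. PCDHGA8 had 0.14 and -0.40, DUXAP9 0.21 and -0.29, and RPS29 0.68 and -0.35. All 10 values passed the test (edgeR, adjusted p of 2.06e-08 to 0.0295).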
